A study of Homo sapiens with 9 samples.

Results

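Members of the BMP and TGF-beta signalling pathways were followed in multicellular tumor spheroids (MTSs) of PC-3, a human prostate cancer cell line derived from a bone metastasis. The 10 genes were chosen by name: the ligands BMP2, BMP4, BMP6, BMP7, TGFB1 and TGFB2, the activin subunit gene INHBA, the receptor gene TGFBR2, the antagonist gene GREM1 and the target gene ID1. The choice was made with earlier results of these data known. All 10 were found among the 27111 genes of the RNA-seq tables, and 9 passed the expression filter among 17108 genes tested, GREM1 being the exception. PC-3 cells had been stably transduced by lentivirus and selected with puromycin, and carried either the empty vector (Empty) or the murine sequence of the long (NF-YAl) or the short (NF-YAs) splice variant of NF-YA, the DNA-binding subunit of the transcription factor NF-Y. Every line thus carried a vector, its endogenous NFYA gene and puromycin resistance, and MTSs of each line were grown with Matrigel and pooled for each library. Each group held 3 libraries from independent experiments. Their letters were A, B and C, except that the last NF-YAl library was D. Whether a line came from more than 1 transduction is not given in the sources used here, so the libraries measure the spread between experiments on a line and not between lines.

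BMPs and TGF-betas are secreted dimers that bind pairs of type I and type II serine/threonine kinase receptors. BMP receptors act through SMAD1, SMAD5 and SMAD9, TGF-beta and activin receptors through SMAD2 and SMAD3, and both branches share SMAD4. In prostate cancer the family is known for its part in bone metastasis and in epithelial plasticity, and NF-Y is known to bind CCAAT boxes in promoters.

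The question was which of these genes differed between MTSs with either NF-YA isoform and Empty MTSs, and between the isoforms. BMP2, BMP4 and BMP6, which encode BMP ligands, were higher than Empty in both lines by 2.97 to 6.73-fold. TGFBR2, the type II receptor for TGF-beta, was 1.75-fold higher in NF-YAl and 2.23-fold higher in NF-YAs. INHBA rose 1.66-fold in NF-YAl and was 1.43-fold higher in NF-YAs without passing the test. BMP7, TGFB1, TGFB2 and ID1 did not pass in any comparison.

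Promoter sequences are shown for the members with changed counts or a target role whose window held CCAAT, since this is the sequence NF-Y is known to bind. RefSeq windows of 300 bases, from 250 bases before a transcription start to 50 bases after it, were given for 8 of the 10 members with 12 starts in all. Each matched the GRCh37 genome once, exactly, on its own chromosome. Capitals mark CCAAT, or ATTGG where the motif lies on the other strand.

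BMP6, chr6:7726082-7726381, plus strand: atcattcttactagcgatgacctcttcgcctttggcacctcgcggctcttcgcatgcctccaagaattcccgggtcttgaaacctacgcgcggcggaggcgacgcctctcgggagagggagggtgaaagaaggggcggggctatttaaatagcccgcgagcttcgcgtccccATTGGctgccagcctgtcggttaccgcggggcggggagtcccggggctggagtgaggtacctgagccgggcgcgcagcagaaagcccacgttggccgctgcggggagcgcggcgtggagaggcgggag
TGFBR2, chr3:30647843-30648142, plus strand: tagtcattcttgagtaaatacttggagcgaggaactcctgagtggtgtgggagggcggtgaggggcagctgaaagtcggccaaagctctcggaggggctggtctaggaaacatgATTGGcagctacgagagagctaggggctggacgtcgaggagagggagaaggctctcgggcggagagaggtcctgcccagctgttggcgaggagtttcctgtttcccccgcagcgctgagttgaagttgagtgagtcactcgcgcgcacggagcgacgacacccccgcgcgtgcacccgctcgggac
INHBA, chr7:41742639-41742938, minus strand: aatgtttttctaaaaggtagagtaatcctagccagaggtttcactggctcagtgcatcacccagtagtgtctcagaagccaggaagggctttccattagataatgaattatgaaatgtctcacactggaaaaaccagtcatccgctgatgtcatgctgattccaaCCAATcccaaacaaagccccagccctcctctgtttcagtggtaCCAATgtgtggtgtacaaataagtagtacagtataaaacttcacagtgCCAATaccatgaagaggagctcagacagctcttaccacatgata
ID1, chr20:30192842-30193141, plus strand: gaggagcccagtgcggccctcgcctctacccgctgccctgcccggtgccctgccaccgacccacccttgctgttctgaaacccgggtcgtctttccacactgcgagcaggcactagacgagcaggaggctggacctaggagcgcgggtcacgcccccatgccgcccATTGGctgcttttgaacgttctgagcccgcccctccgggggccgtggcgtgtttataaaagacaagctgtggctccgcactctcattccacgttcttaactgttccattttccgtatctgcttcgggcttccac

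In BMP6 and ID1 this motif began 78 and 84 bases before the start, in both cases on the other strand. In the TGFBR2 window above it began 136 bases before the start, and in the window of the second listed start, chr3:30647598-30647897, it began 165 bases before that start. INHBA held 3 copies on the gene strand, beginning 85 and 42 bases before the start and 7 bases after it. GREM1 held 1 copy in the first of its 2 windows. No copy was found in the windows of TGFB1, TGFB2 or the 3 starts of BMP4, which says only that these letters are absent there. CCAAT was found on either strand in 34.6% of 35114 promoter windows of the same length, and in 6 of the 12 windows of the members, some of which belong to the same gene. A second sequence, GGCGCC, which is its own reverse complement, was found in 1 window of BMP4 and 1 of GREM1, and in 19.2% of all windows. A match is a description of the sequence, not evidence of binding.

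The libraries held 18076979 to 27163976 counts. NFYA, which checks the labels, was 3.72-fold above Empty in NF-YAl and 2.84-fold above in NF-YAs, with no overlap of libraries. These counts may include reads of the murine transgene. Library NF-YAl D stood apart from NF-YAl A and B on the third principal component, which held 9.36% of the variance. Its ratio of TPM (a level scaled for transcript length and for the library total) to CPM (counts scaled to the depth of a library) was also the highest, with a median of 0.738 against 0.378 to 0.518 in the other 8 libraries. CPM was therefore used between libraries, and TPM to compare genes.

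The PC-3 label was checked against markers. All 4 epithelial markers were detected in every library, led by KRT18 at 212 to 423 TPM, with a summed level of 429 to 565 TPM for Empty, 286 to 561 for NF-YAl and 340 to 396 for NF-YAs. They did not move together: against Empty, KRT8 had log2FC of -1.33 in NF-YAl and -0.78 in NF-YAs, KRT18 -0.42 and -0.49, EPCAM 2.16 and 1.46, and CDH1 -1.33 in NF-YAs, all of which passed (edgeR). Of 3 endothelial markers, KDR was at 5.45 to 6.40 TPM in Empty, 79.8 to 149 in NF-YAl and 38.0 to 56.5 in NF-YAs, while CDH5 stayed at or below 0.12. PECAM1 was at 1.43 to 1.72 TPM for Empty and 1.19 to 2.74 for NF-YAl, and it fell to 0.46 to 0.62 for NF-YAs, with a log2FC of -1.73 and an adjusted p of 4.80e-05 (edgeR). The summed endothelial level was 6.95 to 8.18, 81.0 to 151 and 38.5 to 57.2 TPM in Empty, NF-YAl and NF-YAs, most of it KDR. The 3 stromal markers summed to at most 0.49 TPM in any library. The 3 leukocyte markers summed to 35.7 to 42.2 TPM in Empty, 14.8 to 42.02 in NF-YAl and 22.4 to 26.2 in NF-YAs. Nearly all of it was CD68, and the highest NF-YAl value was that of NF-YAl D. In CPM, CD68 was at 53.1 to 70.7 in Empty, 20.3 to 35.8 in NF-YAl and 27.2 to 35.8 in NF-YAs. CD68 thus fell in both lines, with log2FC of -1.07 and -0.91 and adjusted p of 0.000941 and 0.00231 (edgeR). KDR moved in the same direction as BMP2, BMP4 and BMP6, and its part in those results was not tested. In bulk libraries, fewer cells of a type and less RNA per cell cannot be told apart.

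In Empty MTSs the members spanned a wide range of TPM. ID1 was the most abundant, at 65.1 ± 8.15 TPM (SD, n = 3), followed by TGFB1 at 25.6 ± 3.79, TGFBR2 at 16.2 ± 3.10 and INHBA at 12.8 ± 4.02. The ranges of ID1 and TGFB1 did not overlap with their neighbours, while those of TGFBR2 and INHBA did. BMP7 followed at 5.28 ± 2.31 TPM, with no library as high as the lowest of INHBA. TGFB2 at 1.24 ± 0.194, BMP4 at 0.933 ± 0.318 and BMP6 at 0.767 ± 0.316 TPM had overlapping libraries. BMP2 at 0.0633 ± 0.0379 and GREM1 at 0.0133 ± 0.00577 TPM were at the lower end. BMP7 was thus the most abundant of the 4 BMP ligands in Empty MTSs. In NF-YAl MTSs, BMP4 at 5.91 ± 0.236 and BMP6 at 4.85 ± 1.06 TPM came to overlap with BMP7 at 6.22 ± 1.86 TPM. In NF-YAs MTSs, BMP4 at 3.07 ± 0.570 and BMP6 at 3.40 ± 0.339 TPM were below BMP7 at 4.59 ± 0.448 TPM, with no overlap of libraries. BMP2 remained the lowest of the ligands, at 0.583 ± 0.239 TPM in NF-YAl and 0.447 ± 0.169 in NF-YAs.

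**Figure D1:**
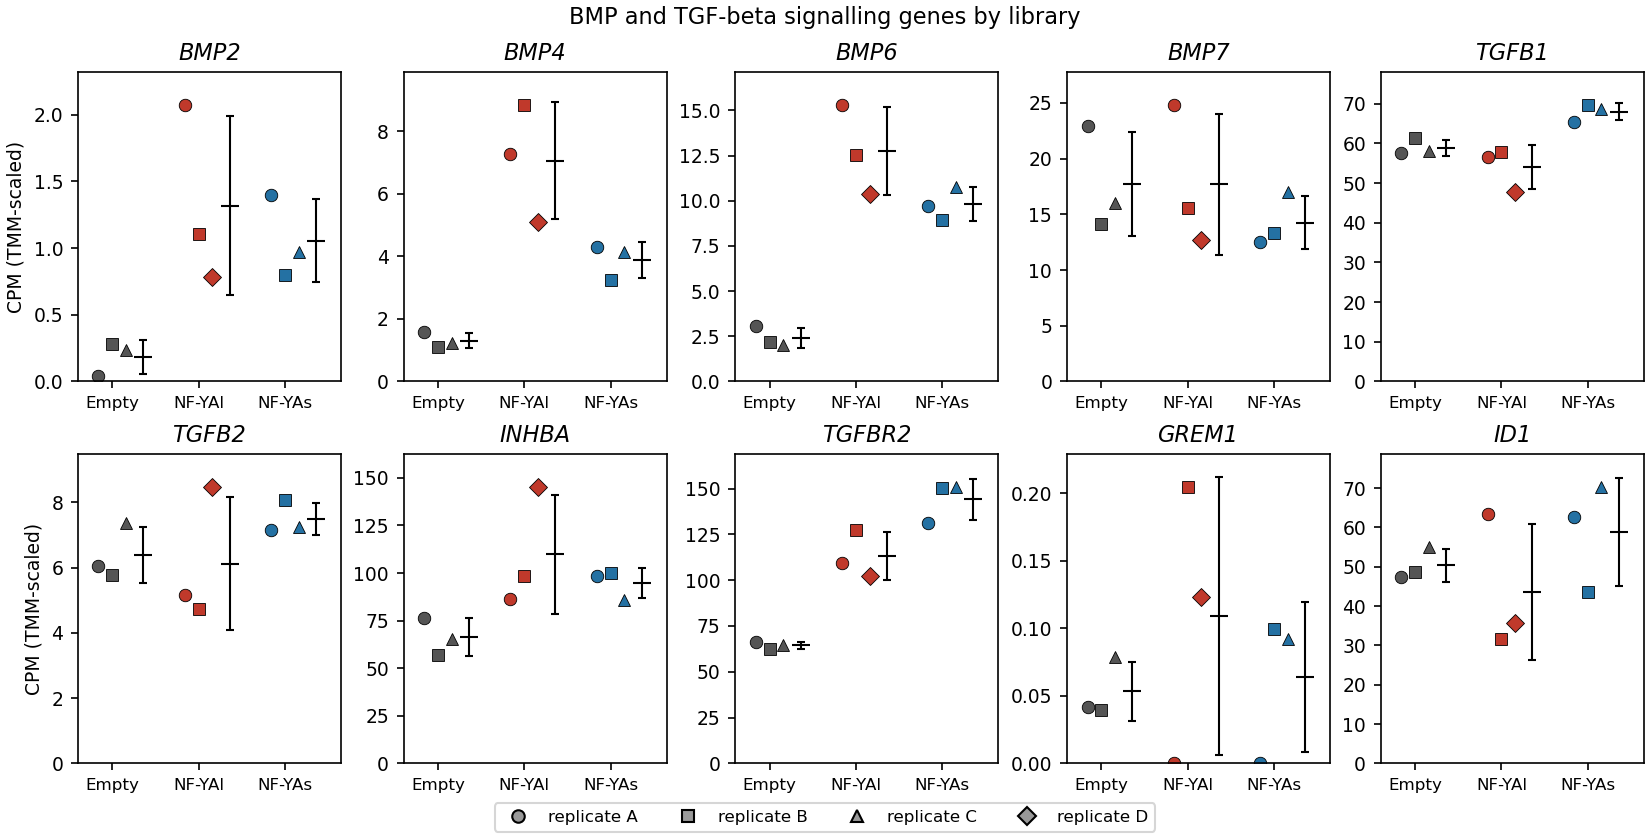
CPM (counts scaled for depth and by TMM) of the 10 genes in each library, with marker shape giving the replicate letter and bars the mean ± SD of 3 libraries. BMP2, BMP4, BMP6, INHBA and TGFBR2 lie above all Empty libraries in both NF-YA lines, and each panel has its own axis from 0.

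Among 9 members tested, 5 passed upward in NF-YAl against Empty at an adjusted p under 0.01, and 0 passed downward. Of all genes tested, 10% passed upward and 9.54% downward in that comparison. With the further demand of a |log2FC| above 1, which defines a DEG here, 3 members and 8.27% of all genes were called. In NF-YAs against Empty, 4 members passed upward and 0 downward, where 12.1% and 10.5% of all genes did, and 4 members and 9.34% of all genes were DEGs. At an unadjusted p under 0.05, 5 of 9 members differed from Empty in each line, all upward, where 42.2% of all genes tested did so in either direction for NF-YAl and 45.02% for NF-YAs (edgeR). Both comparisons share the Empty libraries. The members were chosen with earlier results of these data known, so their counts and medians beside all genes are a description only. The median log2FC of the 9 members was 0.73 in NF-YAl and 0.52 in NF-YAs, beside 0.01 and -0.00262 over all genes tested. Between NF-YAl and NF-YAs, 0 members passed by edgeR, 3 of 9 had an unadjusted p under 0.05, beside 36.5% of all genes, and 1 was called by DESeq2. In that comparison 4.70% of all genes passed upward, 6.25% downward and 4.61% were DEGs.

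**Figure D2:**
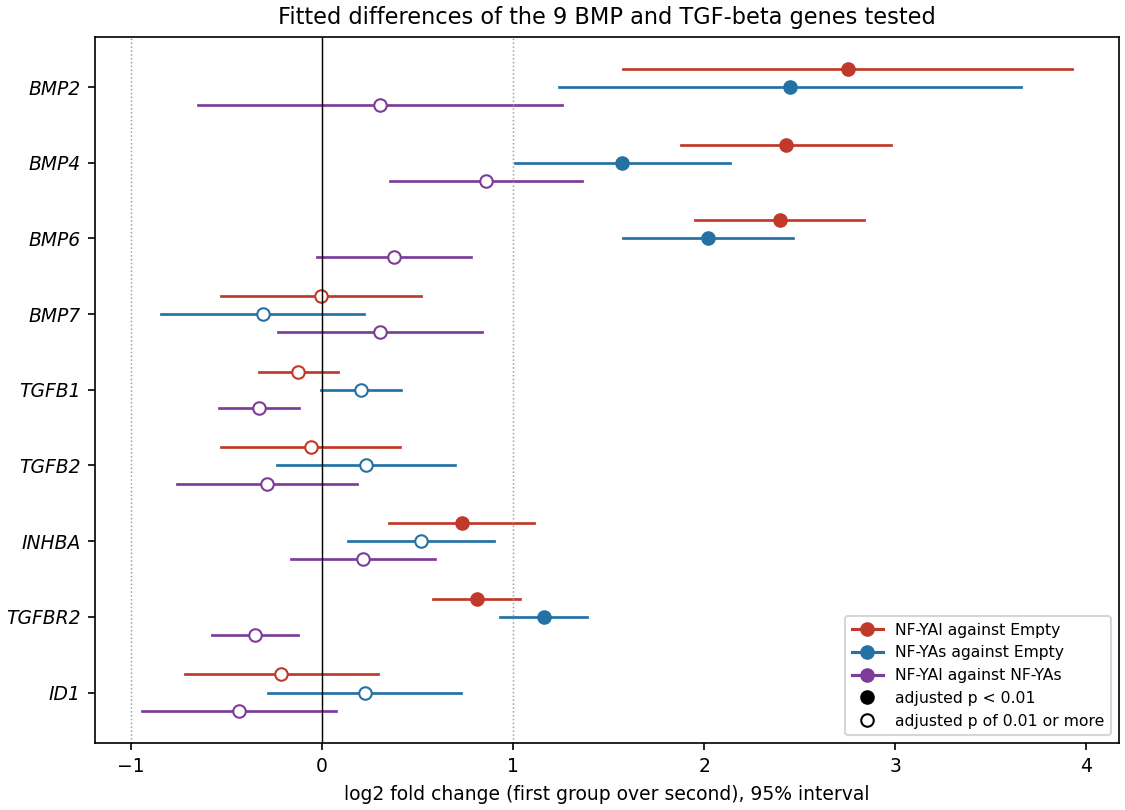
Log2 fold change of the 9 genes tested, with its 95% interval, in 3 comparisons; the fold is of the first group named over the second, and filled points passed at an adjusted p under 0.01. The filled points belong to BMP2, BMP4, BMP6 and TGFBR2 in both NF-YA lines and to INHBA in NF-YAl, and all points of NF-YAl against NF-YAs are open.

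BMP2, a ligand known for inducing bone formation, lies on chromosome 20 at 6748333 to 6760893 (GRCh37, plus strand). Its counts were 1, 7 and 6 in Empty A, B and C. NF-YAl A, B and D gave counts of 39, 27 and 19, and NF-YAs A, B and C gave counts of 26, 16 and 21. Scaled for depth, this was 0.0419, 0.278 and 0.236 CPM for Empty, while NF-YAl gave 2.07, 1.10 and 0.780 CPM and NF-YAs 1.40, 0.796 and 0.968 CPM. All libraries of both lines were above those of Empty, and the highest value in each line was that of replicate A. The log2FC was 2.75 ± 0.540 (SE) in NF-YAl, with an adjusted p of 0.00216, and 2.45 ± 0.555 in NF-YAs, with an adjusted p of 0.00457 (edgeR). The call in NF-YAs was lost when any of 5 of the 6 libraries compared was left out, with log2FC of 2.01 to 2.84 and adjusted p of 0.0103 to 0.0218 (edgeR). The exception was NF-YAs B. With 14 counts in all Empty libraries together, the fold was also sensitive to the scale, and was 0.92 in NF-YAl and 0.74 in NF-YAs on the log2 scale in limma on log2(TPM + 0.5), but 2.04 and 1.73 on log2(TPM + 0.1). Between the isoforms the log2FC was 0.30, with a 95% interval of -0.65 to 1.25, which includes 0.

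BMP4, a ligand of the same subgroup as BMP2, lies on the minus strand of chromosome 14 at 54416454 to 54425479. Its values were 1.59, 1.11 and 1.22 CPM for Empty, while NF-YAl gave 7.27, 8.83 and 5.09 CPM and NF-YAs 4.31, 3.23 and 4.15 CPM. The 3 groups did not overlap, with NF-YAl the highest and Empty the lowest. The log2FC over Empty was 2.43 ± 0.253 in NF-YAl, with an adjusted p of 2.71e-05, and 1.57 ± 0.258 in NF-YAs, with an adjusted p of 0.000570 (edgeR). Both calls held under all 16 alternatives for each comparison. NF-YAl was 1.81-fold above NF-YAs, a log2FC of 0.86 ± 0.232, but this did not pass at the threshold of 0.01, with an adjusted p of 0.0200 (edgeR). It passed in DESeq2, with an adjusted p of 0.00727, and without NF-YAl D, with a log2FC of 1.05 and an adjusted p of 0.00315. Over all 16 alternatives, the adjusted p ran from 0.00315 to 0.0899.

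BMP6, a ligand also known for inducing hepcidin, lies on the plus strand of chromosome 6 at 7726332 to 7881961. It was measured at 3.06, 2.19 and 2.01 CPM for Empty, while NF-YAl gave 15.3, 12.6 and 10.4 CPM and NF-YAs 9.70, 8.91 and 10.8 CPM. Both NF-YA lines were well separated from Empty, and they overlapped with each other. The log2FC over Empty was 2.39 ± 0.204 in NF-YAl, with an adjusted p of 7.11e-06, and 2.02 ± 0.204 in NF-YAs, with an adjusted p of 1.84e-05 (edgeR). These calls held under all 16 alternatives, with log2FC of 2.09 to 2.61 in NF-YAl and 1.65 to 2.23 in NF-YAs. The isoforms differed by a log2FC of 0.38, with a 95% interval of -0.03 to 0.78. Of the 3784 exonic bases annotated for BMP6, 212 are shared with TXNDC5 on the opposite strand, and the sources used here do not say whether counting was by strand. TXNDC5 was measured at 375 to 413 CPM in Empty, 432 to 477 in NF-YAl and 271 to 300 in NF-YAs. It was thus above all Empty libraries in NF-YAl, as BMP6 was, and below them in NF-YAs, where BMP6 was above, and its part in the BMP6 counts was not tested.

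BMP7, a ligand that can form heterodimers with BMP2 and BMP4, lies on the minus strand of chromosome 20 at 55743809 to 55841697. Its values were 22.9, 14.1 and 16.1 CPM for Empty, while NF-YAl gave 24.8, 15.5 and 12.7 CPM and NF-YAs 12.5, 13.3 and 17.0 CPM. The groups overlapped in every comparison. The 95% interval of the log2FC was -0.53 to 0.52 in NF-YAl and -0.84 to 0.22 in NF-YAs against Empty, so changes of the size seen in BMP4 and BMP6 lay outside it. Replicate A was the highest library of both Empty and NF-YAl, at 22.9 and 24.8 CPM, and the lowest of NF-YAs.

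TGFB1, a TGF-beta ligand gene with a higher TPM than TGFB2 in every library, lies on the minus strand of chromosome 19 at 41807492 to 41859827. It was at 57.6, 61.3 and 58.0 CPM for Empty, while NF-YAl gave 56.6, 57.9 and 47.6 CPM and NF-YAs 65.5, 69.6 and 68.7 CPM. NF-YAs was above both other groups with no overlap. The difference from Empty was nevertheless small, with a log2FC of 0.20 ± 0.0956 and an adjusted p of 0.117 (edgeR). NF-YAl was below NF-YAs by a log2FC of -0.33 ± 0.0959, with an adjusted p of 0.0279 (edgeR), which did not pass. On the TPM scale, where NF-YAl D rises, the libraries of NF-YAl and NF-YAs overlapped. Of its 3264 exonic bases, 215 are shared with HNRNPUL1 on the opposite strand. HNRNPUL1 was measured at 169 to 187 CPM in Empty, 143 to 170 in NF-YAl and 179 to 197 in NF-YAs. Its means had the same order of groups as TGFB1, and its part in the TGFB1 counts was not tested.

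TGFB2, another TGF-beta ligand gene, lies on the plus strand of chromosome 1 at 218518678 to 218617961. Its values were 6.04, 5.76 and 7.36 CPM for Empty, while NF-YAl gave 5.15, 4.74 and 8.46 CPM and NF-YAs 7.16, 8.06 and 7.23 CPM. NF-YAl held both the lowest and the highest values, the highest being that of NF-YAl D. The 95% interval of the log2FC was -0.53 to 0.41 in NF-YAl and -0.24 to 0.70 in NF-YAs against Empty.

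INHBA, which encodes the beta A subunit of activins and inhibins, lies on the minus strand of chromosome 7 at 41706766 to 41745432. It was at 76.6, 56.8 and 65.3 CPM for Empty, while NF-YAl gave 86.1, 98.2 and 145 CPM and NF-YAs 98.2, 100.2 and 85.9 CPM. Both lines were above all Empty libraries, and NF-YAl D was higher than the other 8. The log2FC in NF-YAl was 0.73 ± 0.175 with an adjusted p of 0.00718 (edgeR), and the call was lost under 7 of 16 alternatives. Among those, it was not called in a fit of the 2 groups only, with an adjusted p of 0.0206, or without Empty B, Empty C or NF-YAl B, with adjusted p of 0.0398, 0.0307 and 0.0114 (edgeR). Without NF-YAl D it was called at a log2FC of 0.48, with an adjusted p of 0.00822 (edgeR). In NF-YAs the log2FC was 0.52 ± 0.175 with an adjusted p of 0.0367 (edgeR), and the call was made only in a fit of the 2 groups (adjusted p of 0.000944), with a replicate block, or at a threshold of 0.05. INHBA-AS1, which shares 248 exonic bases on the opposite strand, was between 1.03 and 1.60 CPM in all libraries.

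TGFBR2, the type II receptor that binds TGF-beta and recruits TGFBR1, lies on the plus strand of chromosome 3 at 30648093 to 30735634. Its values were 66.3, 62.5 and 64.7 CPM for Empty, while NF-YAl gave 109.6, 127.6 and 102.0 CPM and NF-YAs 131, 150.1 and 151 CPM. The 3 groups did not overlap, with NF-YAs the highest. The log2FC over Empty was 0.81 ± 0.104 in NF-YAl, with an adjusted p of 0.000119, and 1.16 ± 0.105 in NF-YAs, with an adjusted p of 8.64e-06 (edgeR). Both calls held under all 16 alternatives. Between the isoforms the log2FC was -0.35 ± 0.103, with an adjusted p of 0.0291 (edgeR), so the order of the lines did not pass at 0.01. The order of the isoforms in BMP4 was the opposite, with NF-YAl above NF-YAs.

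GREM1, a secreted antagonist of BMP2, BMP4 and BMP7, lies on the plus strand of chromosome 15 at 33010205 to 33037307. Its counts were 1, 1 and 2 for Empty, while NF-YAl gave counts of 0, 5 and 3 and NF-YAs counts of 0, 2 and 2. It did not pass the filter and was not tested. A count of 0 allows up to 0.159 CPM in NF-YAl A and 0.162 CPM in NF-YAs A, by a limit of 3 counts that covers counting error only. A fall or a small rise of GREM1 was therefore not detectable at this depth.

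ID1, a dominant-negative helix-loop-helix regulator and a classical target of BMP signalling, lies on the plus strand of chromosome 20 at 30193086 to 30194318. It was at 47.4, 48.6 and 55.1 CPM for Empty, while NF-YAl gave 63.3, 31.7 and 35.7 CPM and NF-YAs 62.6, 43.5 and 70.2 CPM. NF-YAl A was above all Empty libraries while NF-YAl B and D were below them, so that replicates of 1 line lay on both sides of the control. The log2FC over Empty was -0.21 ± 0.233 in NF-YAl and 0.22 ± 0.232 in NF-YAs, with adjusted p of 0.527 and 0.490 (edgeR). The 95% intervals were -0.72 to 0.29 and -0.28 to 0.73. Between the isoforms the log2FC was -0.44, with an adjusted p of 0.198, and it was called only without NF-YAl A, at a log2FC of -0.80 and an adjusted p of 0.00435 (edgeR).

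**Figure D3:**
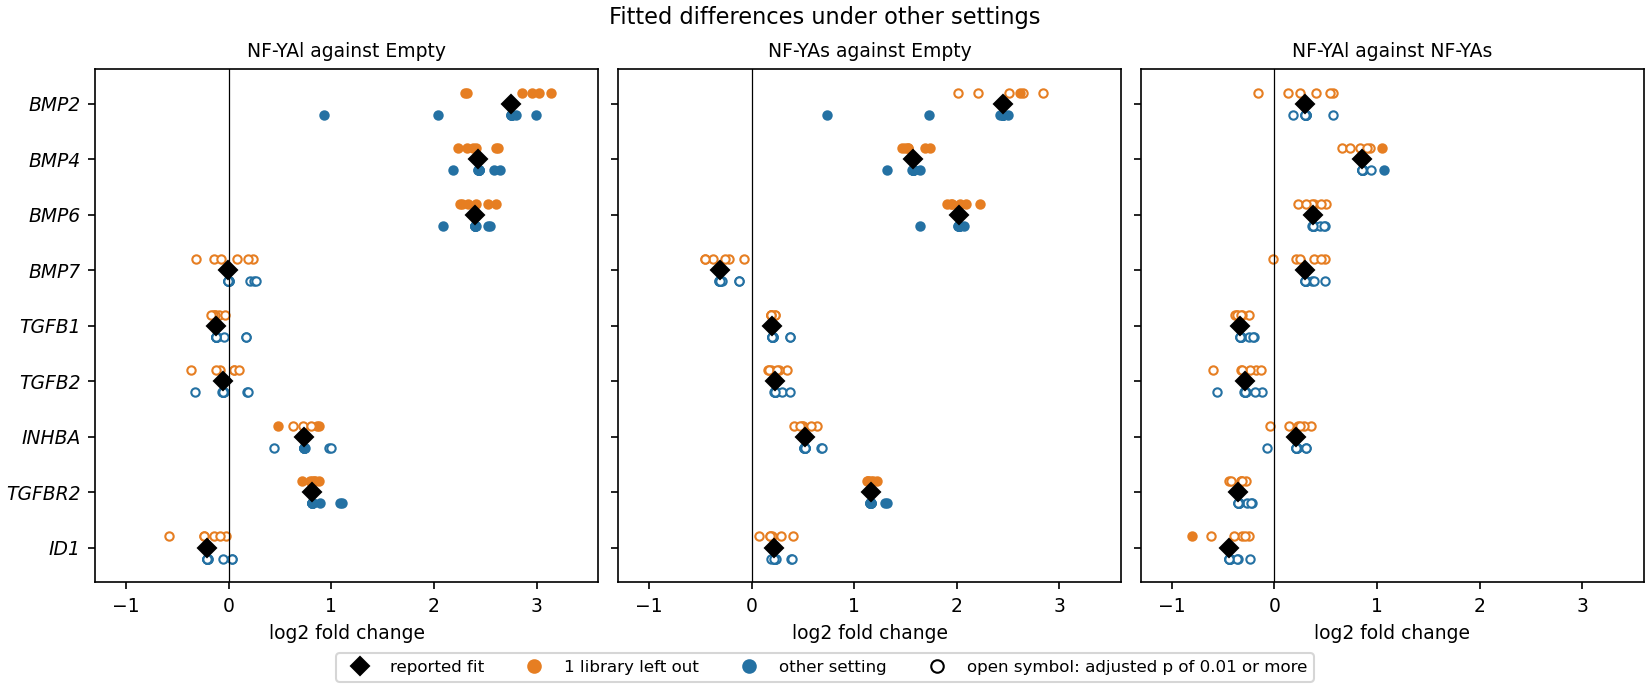
Log2 fold change of each gene in the reported edgeR fit (diamond), with 1 library left out (orange) and under the other settings (blue); open circles have an adjusted p of 0.01 or more. BMP4, BMP6 and TGFBR2 have filled circles throughout both comparisons with Empty, whereas BMP2 in NF-YAs and INHBA in NF-YAl lose some, and the lowest blue points of BMP2 are limma fits on TPM.

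Transcript use was a readout apart from gene counts. The tables listed 1 transcript each for BMP2, BMP6, BMP7, TGFB1 and INHBA, 2 for TGFBR2 and ID1, 4 for TGFB2 and 9 for BMP4. The longer TGFBR2 transcript, of 4704 nt, took 27.9, 25.5 and 25.6% of the TPM of the gene in Empty. Its shares were 19.0, 26.2 and 34.7% in NF-YAl, and NF-YAs gave 24.2, 24.9 and 28.5%. The group means lay between 25.9 and 26.6%, with differences of 0.32 percentage points in NF-YAl and -0.45 in NF-YAs from Empty (exact permutation p = 0.8 and 0.7). The shorter ID1 transcript of 994 nt took 88.2 to 93.1% in every library. BMP4 divided unevenly among its 9 transcripts. The transcript NM_001347914.1 of 1730 nt took 81.6, 56.2 and 88.7% for Empty, while NF-YAl gave 72.0, 0 and 68.0% and NF-YAs 82.5, 95.4 and 64.2%. NM_130851.3, of 1735 nt, took 0.11, 0 and 0% for Empty, while NF-YAl gave 28.03, 92.3 and 16.5% and NF-YAs 0, 0 and 32.3%. All NF-YAl libraries were above Empty for this transcript, at 45.6 ± 40.8% (SD, n = 3) against 0.0367 ± 0.0635%. The two-sided exact permutation test gave p = 0.1, the smallest that 3 against 3 libraries allow, and 0.923 after adjustment over 15 tests. With that smallest p, none of the 15 tests on BMP4, TGFB2 and TGFBR2 transcripts could pass, so they cannot decide whether shares differed. The 2 TGFBR2 transcripts make up the whole gene, so their tests repeat each other. The shares of BMP4 rest on 28 to 216 counts a library that RSEM divided among overlapping transcripts.

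Across the 9 libraries, the log2 CPM of BMP4 and BMP6 had a Pearson correlation of 0.964, and those of BMP2 and BMP6 one of 0.871, as a description of points that share lines and libraries. Outside the 10 genes, the gene most alike was CSGALNACT1 for BMP6 (r = 0.998), FMNL1 for TGFBR2 (0.995), ERV3-1 for BMP4 (0.993), ZNF280B for INHBA (0.988), KSR2 for TGFB1 (0.984), MAP6 for BMP2 (0.979), CAMK1D for BMP7 (0.972), ISCU for TGFB2 (0.934) and IGFBP3 for ID1 (0.920). CSGALNACT1 had mean levels of 2.71, 17.0 and 12.04 CPM in Empty, NF-YAl and NF-YAs, beside 2.42, 12.7 and 9.80 for BMP6. FMNL1 followed TGFBR2 with 2.48, 8.24 and 12.9 CPM in the same order of groups.

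The rest of the pathways was described with 8 lists of 104 other genes, of which 79 were tested. In NF-YAl against Empty 17 passed upward and 15 downward, in NF-YAs against Empty 16 and 17, and between the isoforms 11 and 10. Among all genes tested, the first of these comparisons had 10% passing upward and 9.54% downward. The second had 12.1% and 10.5%, and the third 4.70% and 6.25%. Whether any list differed from these shares was not tested, and the lists were chosen with earlier results of these data known. The median log2FC of the 79 was -0.06, -0.05 and 0.10 in these comparisons, beside 0.01, -0.00262 and 0.02 over all genes. The 9 members and the 79 other genes were not compared by a test. Without Empty C, the count that passed was 20 in place of 32 in NF-YAl, and 20 in place of 33 in NF-YAs. Between the isoforms it was 12 in place of 21 without NF-YAs C.

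**Figure D4:**
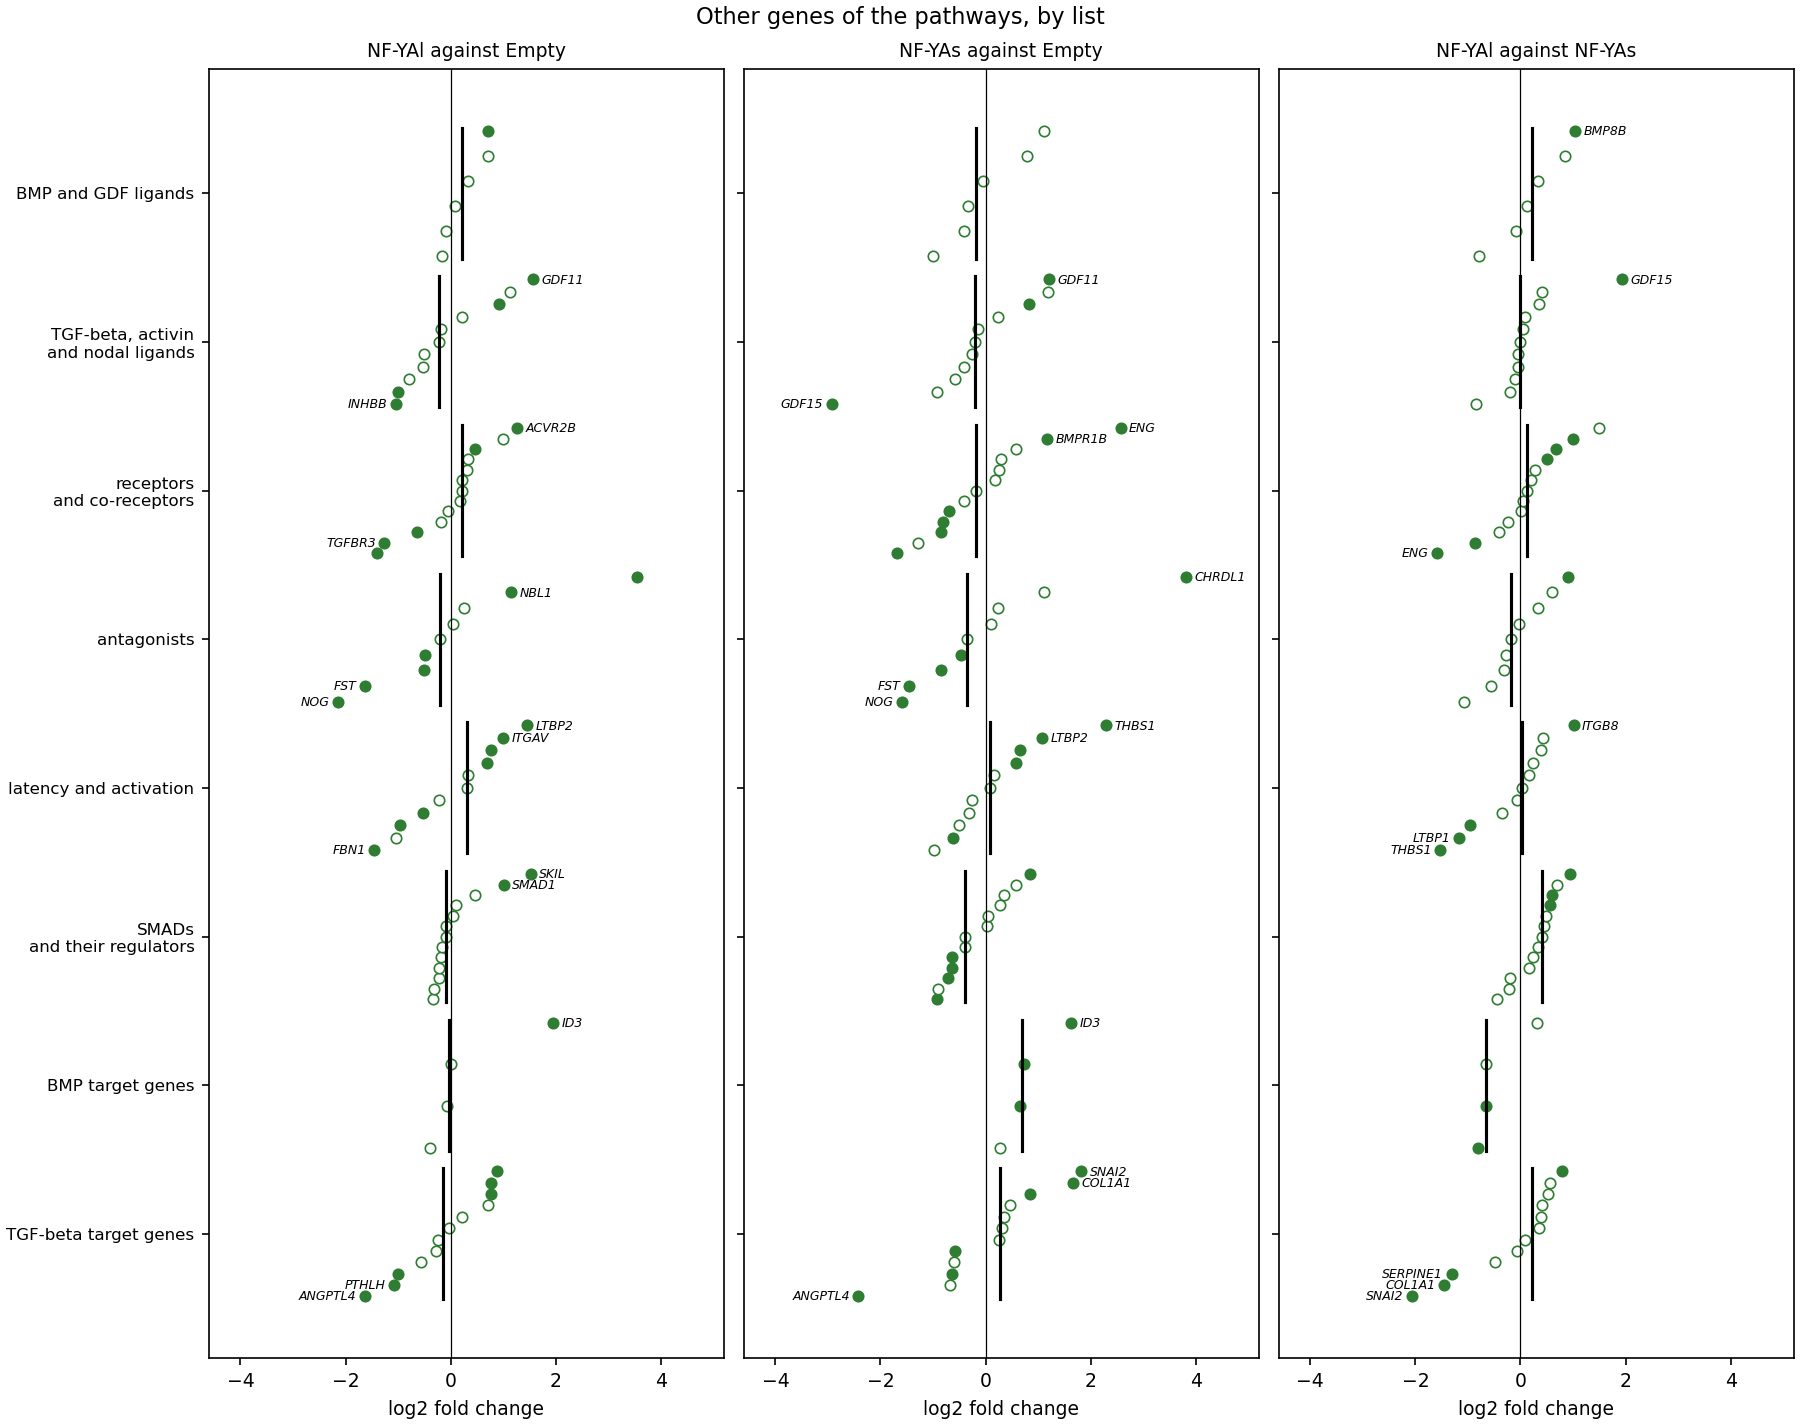
Log2 fold change of the 79 other pathway genes tested, by list and comparison, ordered by value within a list. Filled points passed at an adjusted p under 0.01, vertical bars are list medians, and the labelled genes were chosen by rule from the DEGs; NOG and FST lie at the low end of the antagonists in both comparisons with Empty.

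Among 9 antagonists tested, 2 rose and 4 fell in NF-YAl, and 1 rose and 4 fell in NF-YAs. The BMP antagonist NOG had 49.4 to 66.9 CPM in Empty, against 4.51 to 21.7 CPM in NF-YAl libraries and 16.8 to 23.0 CPM in NF-YAs libraries, and fell with log2FC of -2.14 and -1.58 and adjusted p of 0.000985 and 0.00513 (edgeR). FST, which encodes the activin-binding protein follistatin, lay between 527 and 548 CPM in Empty and at most at 213 in the NF-YA lines, with log2FC of -1.63 and -1.46. Of the others, NBL1 rose in NF-YAl by a log2FC of 1.15, and CHRDL1, at 0.119 to 0.315 CPM in Empty, rose in both lines by 3.54 and 3.82. NOG and FST thus moved in the opposite direction to BMP2, BMP4 and BMP6 in both lines. CHRDL1 moved in the same direction as these ligands in both lines, and NBL1 did so in NF-YAl. In NF-YAs, NBL1 had a log2FC of 0.24 and did not pass, with an adjusted p of 0.310 (edgeR).

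Among the other BMP and GDF ligands, 1 of 6 tested, BMP8B, rose in NF-YAl, by a log2FC of 0.72, and it was higher in NF-YAl than in NF-YAs by a log2FC of 1.04. Of 11 other TGF-beta, activin and nodal ligands, 2 rose and 2 fell in NF-YAl, and 2 rose and 1 fell in NF-YAs. GDF11 rose by log2FC of 1.56 and 1.20, INHBB, the beta B counterpart of INHBA, had a log2FC of -1.05 in NF-YAl, and GDF15 fell in both lines, with log2FC of -0.999 in NF-YAl and -2.93 in NF-YAs. Of 13 other receptors and co-receptors, 2 rose and 3 fell in NF-YAl, and 2 rose and 4 fell in NF-YAs. The co-receptor ENG lay between 2.94 and 4.07 CPM in Empty and between 16.3 and 21.8 in NF-YAs, a log2FC of 2.57, and was lower in NF-YAl than in NF-YAs with a log2FC of -1.58. ACVR2B rose and the TGF-beta co-receptor TGFBR3 fell in NF-YAl, with log2FC of 1.26 and -1.26. In NF-YAs, BMPR1B rose by 1.18, while TGFBR3 (-0.85), ACVRL1 (-1.69), BMPR1A (-0.82) and TGFBR1 (-0.69) fell.

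Of 11 genes of TGF-beta latency and activation, 4 rose and 3 fell in NF-YAl, and 4 rose and 1 fell in NF-YAs. THBS1, an activator of latent TGF-beta, rose by a log2FC of 0.76 in NF-YAl and 2.29 in NF-YAs, and LTBP2 rose by 1.46 in NF-YAl and 1.08 in NF-YAs. In NF-YAl, FBN1, FBN2 and LTBP1 fell, with log2FC of -1.46, -0.97 and -0.52. In NF-YAs, FBN2 fell with a log2FC of -0.63, while LTBP1 rose by 0.65. Of 13 SMADs and regulators, 2 rose in NF-YAl, SKIL by 1.53 and SMAD1 by 1.01, while 1 rose, SMAD1 by 0.85, and 4 fell in NF-YAs, SMAD2, SMAD4 and SMAD5 among them. Of 4 BMP targets tested beside ID1, 1 rose in NF-YAl and 3 in NF-YAs. ID3, of the same family as ID1, had 7.42 to 10.04 CPM in Empty, against 15.7 to 56.5 CPM in NF-YAl libraries and 20.5 to 30.7 CPM in NF-YAs libraries, and rose with log2FC of 1.95 and 1.63 and adjusted p of 0.00148 and 0.00404 (edgeR). Of 12 TGF-beta targets, 3 rose and 3 fell in each line. ANGPTL4 fell by 1.63 and 2.42 on the log2 scale, while SNAI2 and COL1A1 rose in NF-YAs by log2FC of 1.82 and 1.67 and were lower in NF-YAl than in NF-YAs, with log2FC of -2.06 and -1.45.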

How the data were processed

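RNA-seq was made from MTSs of 3 transduced PC-3 lines with 3 libraries each, from stranded total RNA, per the labels. The authors aligned reads with bowtie2 within RSEM to human RefSeq transcripts of GRCh37, and deposited expected counts, TPM, lengths and effective lengths per gene and transcript, and each transcript's percent of its gene's TPM. The expected counts are estimates of reads, without normalization, while the deposited TPM are corrected for effective length and add up to one total per library. Deposited FPKM were not used.

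Expected gene counts were rounded and fitted with edgeR 4.0.16 in R 4.3.3 (filterByExpr, TMM, all 9 libraries in one quasi-likelihood fit, Benjamini-Hochberg adjustment over 17108 genes). A gene passed at an adjusted p under 0.01, and was a DEG with a |log2FC| above 1. The thresholds are those of the study's methods, which used DESeq2. SEs were |log2FC| over the square root of F, and CPM were TMM-scaled. Transcript shares with a mean of 10 to 90% were compared by exact permutation tests. The members and gene lists were chosen with earlier results of these data known. Pathway genes named were up to 4 DEGs per list and comparison with the largest |log2FC|, a mean of at least 1 TPM in the higher group and no overlap of libraries. Some other genes of the lists are named beside them. The genes most alike were those with the highest Pearson correlation over the 9 libraries.

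Totals were 18076979 to 27163976 counts per library. The chi-square per gene between replicate libraries was 6.24 to 90.8, above the level of counting error. Alternatives were RLE scaling, DESeq2 1.42.0, testing without a filter or with a minimum of 10 counts in each library, a fit of 2 groups only, a replicate block, a length offset, limma 3.58.1 on log2(TPM + 0.5) and log2(TPM + 0.1), a threshold of 0.05 on the adjusted p, and omitting each replicate in turn. The procedure was tested on simulated data. Positions and exons came from GENCODE annotation of GRCh37, and promoter windows from RefSeq (GRCh38.p14), placed by exact match in GRCh37. BMP2 and BMP7 had no window. Figures used matplotlib and pandas in Python. Results for some marker genes are not reported here.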

Additional observations from a re-analysis of the deposited data

How the results depend on the processing

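Under 16 alternatives per comparison (15 for BMP2, which the filter of at least 10 counts in every library removed), 387 fitted log2FC of members kept their direction and their side of the threshold, 12 were no longer called, 10 were newly called and 20 changed sign. The count of members that passed against Empty stayed within 1.5 times in both lines. For NF-YAl against NF-YAs that count was 0, and became 1 in DESeq2, 1 with a replicate block, 3 at an adjusted p under 0.05 and 0 to 1 with a replicate left out. The count of pathway genes in NF-YAl against Empty was 32, and became 20 in a fit of 2 groups only, 15 and 16 in limma with pseudocounts of 0.5 and 0.1, and 20 to 33 with a replicate left out (20 without Empty C, 21 without Empty B). In NF-YAs against Empty it was 33, and became 12 and 13 in limma and 20 to 26 with a replicate left out (20 without Empty C, 21 without NF-YAs C). Between the isoforms it was 21, and became 5 and 5 in limma and 12 to 25 with a replicate left out (12 without NF-YAs C, 13 without NF-YAs B). The cause of these moves was not tested.

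The log2FC that changed sign were all small and not called on either side. BMP7 in NF-YAl against Empty was -0.00650, and became 0.00541 without a filter, 0.21 with a replicate block, 0.25 and 0.27 in limma, and -0.32 to 0.23 with a replicate left out. In limma at the 2 pseudocounts, TGFB1 in the same comparison became 0.17 and 0.17, TGFB2 0.17 and 0.19, and ID1 0.032 and 0.031. TGFB2 ran from -0.37 to 0.10 with a replicate left out. Between the isoforms, INHBA became -0.074 with a replicate block and -0.038 to 0.36 with a replicate left out, BMP2 became -0.15 to 0.58, and BMP7 -0.013 to 0.49. With the replicate block, INHBA in NF-YAl against Empty was 0.44 with an adjusted p of 0.0186, INHBA in NF-YAs 0.52 with 0.00287, and BMP4 between the isoforms 1.07 with 0.00543 (edgeR). Only NF-YAl D carried the letter D, so the block fitted that library with a term of its own. Under the block, comparisons with NF-YAl thus rested on NF-YAl A and B, much as when NF-YAl D was left out. The labels do not say that a letter marks a shared day or batch. The 7 same-letter pairs had deviations correlated at -0.0652 to 0.253 (mean 0.0862, 3 above 0.1), against a mean of -0.0299 and 1 above 0.1 in 20 different-letter pairs. Since not all same-letter pairs were above 0.1, the letters were not taken as pairs. With only 7 such correlations from groups of 3 libraries, this rule cannot decide whether the libraries were paired. Depth limits BMP2 and GREM1, with at most 39 and 5 counts in a library.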
